A study of Mus musculus with 4 samples.

Results

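Sprr2b, Sprr2e and Sprr2f are 3 genes of the small proline-rich protein 2 cluster on mouse chromosome 3. They were selected on their Cy5 readings, as Sprr2 paralogues that read higher in (pro)renin receptor knockout than in wild-type collecting duct cells. Each had 1 probe, found through the probe's accession in a mouse RefSeq table, so the members are 3 of 41174 non-control probes, 3 of 16355 genes with a symbol there and 3 of 16062 genes, named or not, tested in Cy5. All 3 passed the filter on dim probes on both knockout and both wild-type arrays.

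Small proline-rich proteins are short proteins rich in proline, glutamine and cysteine. In squamous epithelia transglutaminases cross-link them as bridges between the other proteins of the cornified envelope, the insoluble layer under the membrane of terminally differentiated cells. Sprr2 genes are also induced in simple epithelia under injury, inflammation or hormone treatment. The mouse cluster arose by repeated duplication, so its transcripts resemble each other closely and probes for one gene may bind RNA of another. The probe sequences were not used here, so binding to paralogues was not tested.

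The cells were EGFP-positive collecting duct and ureteric bud cells sorted from mice at postnatal day 1. Knockout cells carried floxed alleles of the receptor gene, labelled PRR flox/flox, with the HoxB7CreEGFP transgene, which acts in the ureteric bud lineage, and the wild-type cells, labelled PRR+/+, carried CreEGFP as well. Each labelling reaction took 0.5 µg of total RNA from pooled cells, and nothing in the labels says whether the arrays of a group came from separate animals, so any p-value measures only the spread between these arrays. On 2 two-colour arrays, KO_vs_WT replicates 1 and 2, knockout RNA was labelled with Cy5 and wild-type pool 1 or 2 with Cy3, and on WT_self replicates 1 and 2 wild-type pool 1 or 2 carried both dyes. Groups follow the source named for each channel. The titles name the genotypes the other way round, so every knockout minus wild-type direction in Cy5 would turn if they were right, and the descriptions swap the pools of the self arrays. All 4 arrays shared 1 slide and 1 scan day.

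Of 41174 probes, 18433 to 22734 were well above background in Cy5 per array and 14949 to 18593 in Cy3 on 3 arrays, but only 32 in Cy3 of KO_vs_WT replicate 1, which was therefore left out of all Cy3 values. The median spike-in signal in Cy5 was 4606 and 1786 in knockout, against 3783 in pool 1 and 5.6 in pool 2, and the part of this in the results was not tested. Atp6ap2, the gene of the receptor, had log2 Cy5 levels of 8.08 and 7.72 in knockout, against 8.37 and 8.51 in wild type, a difference of -0.54 ± 0.17 (SE, n = 2 arrays each, limma adjusted p = 0.802). All 16 ureteric bud and collecting duct markers sought, among them Hoxb7, Ret, Gata3, Cdh1 and Aqp2, were well above background on every array in Cy5. None of the 16 passed limma, and the median difference was 0.10. Both knockout arrays were above both pools in 6 of the 16 and below both in 4, against 22.4% and 17.1% of all genes. Aqp2, the water channel of principal cells, stood at 0.74, and the sodium channel subunits Scnn1g and Scnn1b at 0.66 and 0.57. Atp6v1b1, a proton pump subunit of intercalated cells, stood at -0.63 ± 0.40 (SE). It read 6.96 and 6.96 in knockout, close to the 6.99 of pool 1, against 8.18 in pool 2. The part of these in the Sprr2 readings was not tested. With 2 arrays a group, the number of arrays limits the precision of all values.

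In the Cy5 comparison, knockout RNA of the KO_vs_WT arrays was compared with wild-type RNA that carried the same dye on the self arrays. In it Sprr2f differed most of the 3 genes. Sprr2b and Sprr2e had no settled order, since Sprr2b differed more with the processing used here and Sprr2e, at 1.28, about as much as Sprr2b, at 1.25, with the scanner software's processed signal. Because this difference chose them, their values are a description and carry no test. Levels are log2 intensities after background correction and quantile normalization of the 4 Cy5 channels.

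Sprr2f, a gene known for its induction by oestrogen in the mouse uterus, had log2 Cy5 levels of 9.66 and 10.24 in knockout (replicates 1 and 2), against 8.28 in wild-type pool 1 and 7.26 in pool 2. The lowest knockout value lay 1.38 above the highest wild-type value. Knockout averaged 9.95 ± 0.41 and wild type 7.77 ± 0.72 (SD, n = 2 arrays each), a difference of 2.18 ± 0.39 (SE), or 4.54-fold. The mean knockout level was 3.19-fold that of pool 1 and 6.46-fold that of pool 2, the wild-type pools standing further apart than the knockout arrays. In sorted pools such as these, more cells that make a transcript and more transcript per cell cannot be told apart. Ranked from the largest increase in knockout downward, Sprr2f stood at place 12 of the 16062 genes, on the same difference that chose it.

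Sprr2b, like Sprr2e a cornified envelope precursor of the family, had log2 Cy5 levels of 8.41 and 9.05 in knockout, against 7.68 in pool 1 and 7.60 in pool 2. The groups did not overlap, and the wild-type pools lay within 0.09 of each other, with pool 2 at -0.09 relative to pool 1. The mean was 8.73 ± 0.46 in knockout and 7.64 ± 0.06 in wild type (SD, n = 2 each), a difference of 1.09 ± 0.24 (SE), or 2.13-fold. Nearly all of the spread of Sprr2b lay between the knockout arrays, which were 0.65 apart.

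Sprr2e had log2 Cy5 levels of 7.82 and 8.02 in knockout, against 7.20 in pool 1 and 7.09 in pool 2. It had the smallest spread of the 3 genes in knockout, 7.92 ± 0.14 there and 7.15 ± 0.08 in wild type (SD, n = 2 each). The difference was 0.77 ± 0.13 (SE), or 1.71-fold, and 1.28 on the log2 scale with the scanner software's processed signal in place of normexp and quantile normalization. Its groups did not overlap, with a gap of 0.62 between the lowest knockout and the highest wild-type value, against a gap of 0.72 for Sprr2b.

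The non-overlap of the 3 genes follows from their choice, and 22.4% of all 16062 genes had both knockout arrays above both wild-type arrays. No gene of the 16062 passed limma at an adjusted p under 0.05 (0.0% called, 0 higher and 0 lower, smallest adjusted p = 0.802), while 673 had an unadjusted p under 0.05. Without WT_self replicate 1 the same test called 2510 genes higher and 1688 lower, in a fit whose spread came from the knockout arrays alone. An exact permutation test of 2 arrays against 2 cannot go below p = 0.333. Before any scaling, the scanner's background-subtracted Cy5 signal of Sprr2f was 1122 and 1028 in knockout, against 207 in pool 1 and 53.9 in pool 2. That of Sprr2b was 398 and 404 in knockout, against 119 and 87.8 in the pools. That of Sprr2e was 257 and 164 in knockout, against 65.6 and 38.9 in the pools. This unscaled signal is the same Cy5 reading that chose the genes, so the order of its values adds no support. The share of all genes with such an order was not computed. More probes were well above background in Cy5 on the knockout arrays (22734 and 20814) than in pool 1 (20038) and pool 2 (18433).

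**Figure D1:**
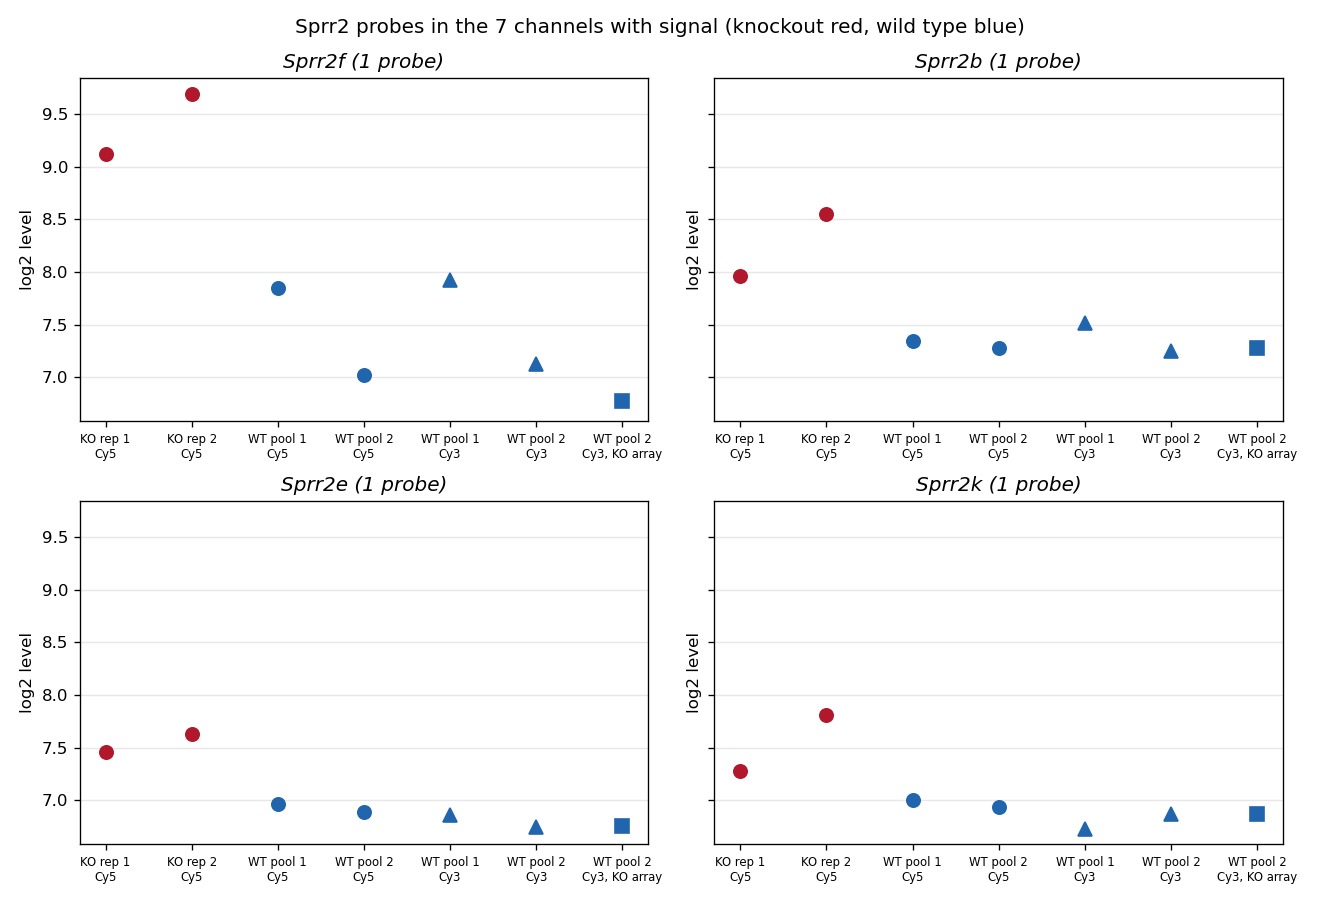
Log2 levels (vertical axis) of the 4 detected Sprr2 probes other than Sprr2a1 in the 7 channels with signal (horizontal axis), normalized together, with knockout in red and wild type in blue. Each point is 1 channel, circles are Cy5, triangles and squares Cy3. For Sprr2f the knockout channels read 9.12 and 9.69 and the wild-type channels 6.78 to 7.92.

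The Cy3 readings of the wild-type pools played no part in the choice of the genes, while the Cy5 readings of both genotypes did. With the 7 usable channels normalized together, Sprr2f read 9.12 and 9.69 in knockout Cy5, against 7.85 in Cy5 of pool 1 and 7.02 in Cy5 of pool 2. In Cy3 the wild-type readings were 7.92 for pool 1, and for pool 2 7.13 on its self array and 6.78 on KO_vs_WT replicate 2. All 5 wild-type readings thus lay below both knockout readings, by at least 1.20. The choice of the genes fixes much of this gap and the comparison runs across dyes, so nothing is read from it, and 12.3% of all genes had both knockout readings above all 5 wild-type readings. Sprr2b read 7.96 and 8.55 in knockout Cy5, and between 7.25 and 7.52 over the 5 wild-type readings, a gap of 0.45. Sprr2e read 7.46 and 7.63 in knockout Cy5, and between 6.75 and 6.97 over the wild-type readings, a gap of 0.49.

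The wild-type pools differed in Sprr2f by the same sign in both dyes. Pool 2 minus pool 1 was -1.02 in Cy5 and -0.79 in Cy3. For Sprr2e that difference was -0.11 in each dye, and for Sprr2b -0.09 in Cy5 and -0.27 in Cy3. Pools at least 2-fold apart in Cy5 were found in 3.89% of genes (625 of 16062), and Sprr2f was the only one of the 3 among them.

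KO_vs_WT replicate 2 set knockout and wild-type pool 2 on the same array. After loess normalization within the array, the log2 ratio of knockout over pool 2 was 2.87 for Sprr2f, 1.32 for Sprr2b and 0.89 for Sprr2e. On the self arrays, where both dyes carry the same pool, Sprr2f read -0.04 and -0.05, Sprr2b -0.14 and 0.02, and Sprr2e 0.09 and 0.05. After loess the self-array ratios of the 3 probes were thus at most 0.14 in size. With median centring in place of loess they were 0.84 and 0.11 for Sprr2f, 0.54 and 0.29 for Sprr2b and 0.45 and 0.13 for Sprr2e. A ratio of at least 2-fold was reached by Sprr2f and Sprr2b, and by 1.48% of all genes tested, while 2.1% had a ratio as large in the other direction. The knockout signal in this ratio also entered the choice of the genes, and the ratio rests on 1 array, so it has no replicate check. With the scanner software's own ratio the values were 4.55 for Sprr2f, 2.19 for Sprr2b and 1.99 for Sprr2e. The software's self-array ratios were between -0.17 and 0.23 over the 3 probes. The share of 1.48% is that of the loess ratio, and the share of all genes past 2-fold by the software's ratio was not computed. KO_vs_WT replicate 1 gave no usable ratio, since its Cy3 signals for the 3 probes were below 0.

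**Figure D2:**
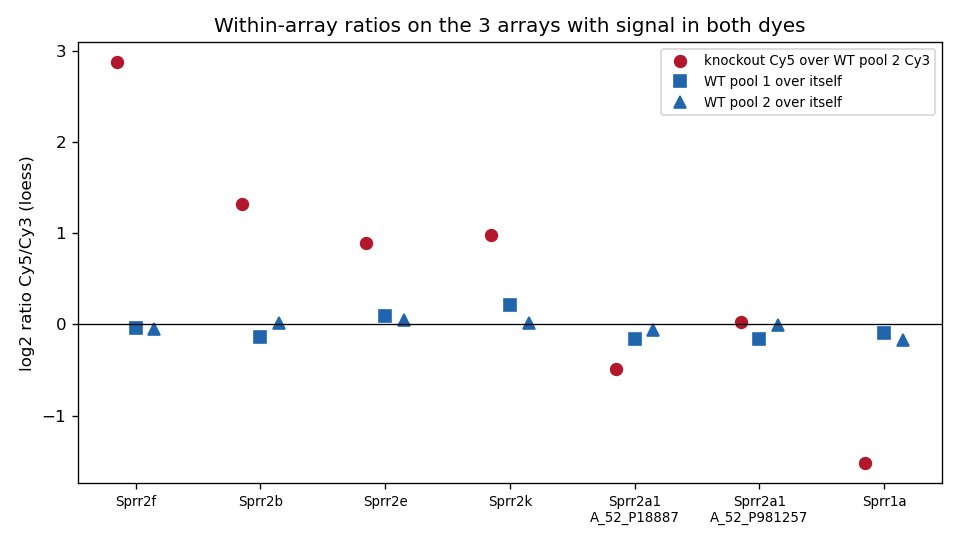
Log2 ratio of Cy5 over Cy3 (vertical axis) for Sprr probes (horizontal axis) on the 3 arrays with signal in both dyes. Red circles are knockout over wild-type pool 2, and blue squares and triangles are each wild-type pool over itself. Sprr2f stands at 2.87 on the knockout array and at -0.04 and -0.05 on the self arrays, while Sprr1a stands at -1.52.

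Of the other Sprr genes, 8 had a probe (9 probes), and 4 of the 8 were bright enough to be tested. Sprr2k, a further paralogue of the same cluster, had log2 Cy5 levels of 7.59 and 8.24 in knockout, against 7.23 and 7.16 in wild type. It lay just outside the chosen genes, of which Sprr2e had the smallest difference. Its groups did not overlap, its difference was 0.72 ± 0.24 (SE), and it did not pass limma (adjusted p = 0.802). Without KO_vs_WT replicate 2 the difference was 0.40, and with the processed signal 1.32. On KO_vs_WT replicate 2 its ratio of knockout over pool 2 was 0.98, with 0.21 and 0.02 on the self arrays.

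Sprr2a1, whose transcript these probes may not separate from those of its close copies Sprr2a2 and Sprr2a3, showed no such difference. Its brightest probe read 13.00 and 13.03 in knockout, against 13.15 and 12.88 in wild type, a difference of 0.00 ± 0.14 (SE, limma adjusted p = 1.0). Its other probe stood at -0.15. Sprr1a, a cornified envelope precursor of the Sprr1 subfamily, was at 10.49 and 10.44 in knockout, against 10.78 in pool 1 and 11.84 in pool 2. Both knockout arrays were below both pools, with a difference of -0.84 ± 0.36 (SE, limma adjusted p = 0.802), and differences of -0.32 from pool 1 and -1.37 from pool 2. Pool 2 exceeded pool 1 by 1.06 in Cy5 and by 1.05 in Cy3 for Sprr1a, opposite in sign to Sprr2f.

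Sprr4 was well above background in both knockout Cy5 channels and in neither wild-type Cy5 channel. By group means it was 1.18-fold higher in knockout Cy5 (limma adjusted p = 0.802), against 1.12-fold over pool 2 alone. In Cy3 it was well above background on both arrays with pool 2. With the 7 channels normalized together it read 6.61 and 6.59 in knockout Cy5, against 6.63 to 6.75 in wild-type Cy3, which lay above both knockout readings. Sprr2d, Sprr2h and Sprr3 were well above background in no channel of any array, and Sprr1b in 1 knockout Cy5 channel only. Of the 4 tested genes outside the chosen 3, 0 passed the test in either direction. Their median difference was 0.12 against 0.025 over all genes. Both knockout arrays were above both pools for Sprr2k and Sprr4 and below both for Sprr1a, against 22.4% and 17.1% of all genes. Sprr4 passed the filter on dim probes through the knockout arrays alone, which favours a higher knockout reading. In the order of the RefSeq table, Sprr2e and Sprr2f are direct neighbours, Sprr2b lies before Sprr2d on the side of the Sprr2a genes, and Sprr2k closes the Sprr2 row next to Sprr1b. Of the genes whose probes were not well above background, Sprr2d lies between Sprr2b and Sprr2e, and Sprr2h between Sprr2f and Sprr2k.

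**Figure D3:**
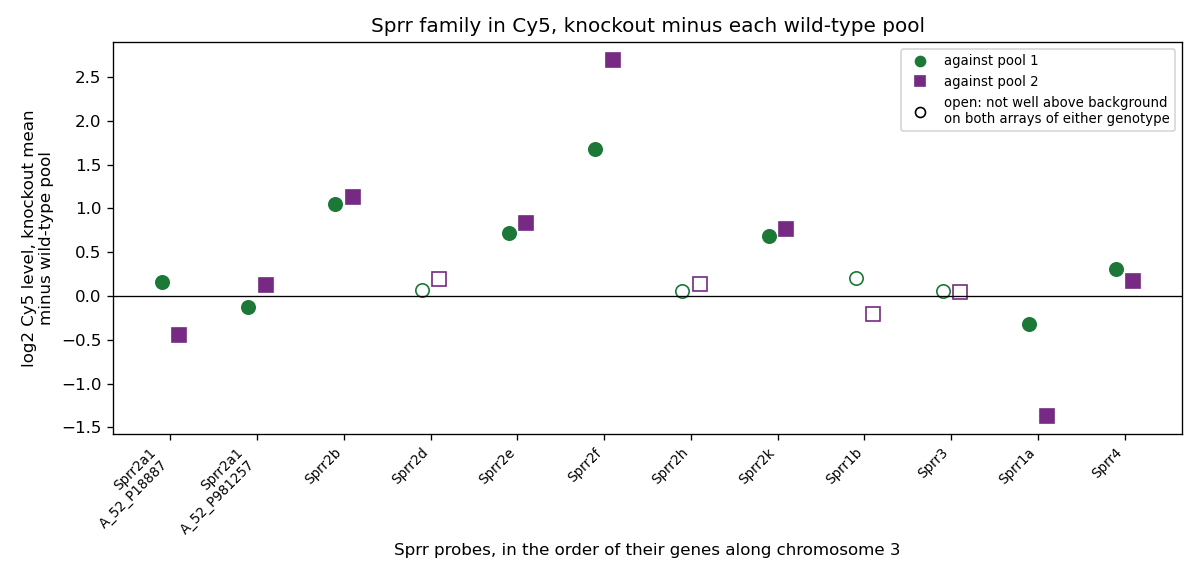
Knockout mean minus each wild-type pool in log2 Cy5 level (vertical axis) for the 12 Sprr probes, ordered by gene along chromosome 3 (horizontal axis). Green circles are against pool 1 and purple squares against pool 2. Open symbols are probes that were well above background on both arrays of neither genotype. The dimmer Sprr2a1 probe is filled, but did not enter the test. Sprr2f stands at 1.68 and 2.69, and Sprr1a at -0.32 and -1.37.

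The promoter windows of the genes are shown because Sprr2b, Sprr2e, Sprr2f and Sprr2k read higher in knockout Cy5 while Sprr2d, with a promoter close to that of Sprr2e, was not well above background. All 3 chosen genes had a window in the RefSeq promoter table. Each window runs from 250 bases before to 50 after the RefSeq start on the plus strand of build GRCm38.p6. The windows are chr3:92364937-92365236 for Sprr2f, chr3:92351893-92352192 for Sprr2e, chr3:92316455-92316754 for Sprr2b, chr3:92432332-92432631 for Sprr2k and chr3:92338890-92339189 for Sprr2d. Capitals mark matches, in this order from the left, to an AP-1-type motif (TGANTCA), an octamer-type motif (ATGCAAA, on the opposite strand here) and a TATA box (TATAAA). Sprr2k holds the first motif at 2 places. These motifs, of 8 searched, were picked for capitals after the sequences had been seen.
Sprr2f: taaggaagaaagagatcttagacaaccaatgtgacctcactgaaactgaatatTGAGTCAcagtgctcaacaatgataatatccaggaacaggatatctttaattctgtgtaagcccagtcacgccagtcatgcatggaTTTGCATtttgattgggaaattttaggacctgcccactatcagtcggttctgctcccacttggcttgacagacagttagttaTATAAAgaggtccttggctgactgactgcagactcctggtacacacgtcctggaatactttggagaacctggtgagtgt
Sprr2e: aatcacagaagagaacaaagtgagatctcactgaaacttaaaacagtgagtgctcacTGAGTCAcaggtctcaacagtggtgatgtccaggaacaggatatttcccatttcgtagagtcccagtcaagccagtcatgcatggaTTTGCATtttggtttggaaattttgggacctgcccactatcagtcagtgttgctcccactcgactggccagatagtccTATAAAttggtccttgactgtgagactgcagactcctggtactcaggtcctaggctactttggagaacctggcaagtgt
Sprr2b: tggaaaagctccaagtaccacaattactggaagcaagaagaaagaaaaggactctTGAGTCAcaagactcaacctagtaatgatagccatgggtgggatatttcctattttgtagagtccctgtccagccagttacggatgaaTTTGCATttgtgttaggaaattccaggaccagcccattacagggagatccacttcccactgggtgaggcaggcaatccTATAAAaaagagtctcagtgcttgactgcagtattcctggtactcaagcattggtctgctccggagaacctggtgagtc
Sprr2k: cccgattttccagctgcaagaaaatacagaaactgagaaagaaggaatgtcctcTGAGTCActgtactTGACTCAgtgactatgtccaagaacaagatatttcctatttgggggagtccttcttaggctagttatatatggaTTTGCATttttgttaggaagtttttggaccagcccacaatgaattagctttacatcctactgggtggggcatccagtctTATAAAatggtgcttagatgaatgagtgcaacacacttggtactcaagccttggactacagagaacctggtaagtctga
Sprr2d: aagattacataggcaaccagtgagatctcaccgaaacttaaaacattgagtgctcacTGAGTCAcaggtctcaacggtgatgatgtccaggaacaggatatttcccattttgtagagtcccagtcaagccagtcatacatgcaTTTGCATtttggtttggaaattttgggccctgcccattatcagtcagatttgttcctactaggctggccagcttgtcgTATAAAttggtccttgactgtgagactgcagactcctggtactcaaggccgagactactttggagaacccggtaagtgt

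AP-1 factors, Fos and Jun dimers, are early responders to stimulation, and octamer and Ets sites are known from the human SPRR2A promoter. Searched on both strands, each of the 3 motifs occurred in the windows of Sprr2b, Sprr2e and Sprr2f at nearly the same place. The AP-1-type match began at position -195 in Sprr2b, -193 in Sprr2e and -197 in Sprr2f, counted from the start. The octamer-type match began at -107 in Sprr2b and Sprr2e and at -111 in Sprr2f, and the TATA box at -29 in all 3. All 3 motifs together occurred in 34 of 32851 windows of the table (0.103%), and singly in 7.81% (AP-1-type), 4.63% (octamer-type) and 13.6% (TATA box). Of the 14 Sprr windows, 7 held all 3. These were the windows of Sprr2b, Sprr2e, Sprr2f, Sprr2k, Sprr2i and also of Sprr2d and Sprr2h, whose probes were not well above background. None of the 3 motifs was found in the windows of Sprr2a1, Sprr2a2 and Sprr2a3. Whether these windows cover the stretch that matches the other Sprr2 promoters was not tested. Aligned over their whole length, the windows of Sprr2e and Sprr2f were 75.8% identical, those of Sprr2b and Sprr2f 65.7% and those of Sprr2d and Sprr2e 89.1%. Those of Sprr2a1 and Sprr2f were 50.7% identical, close to the 49.7% of Sprr2f and Sprr4. The matches are letters in related sequences and do not show that a factor binds there.

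**Figure D4:**
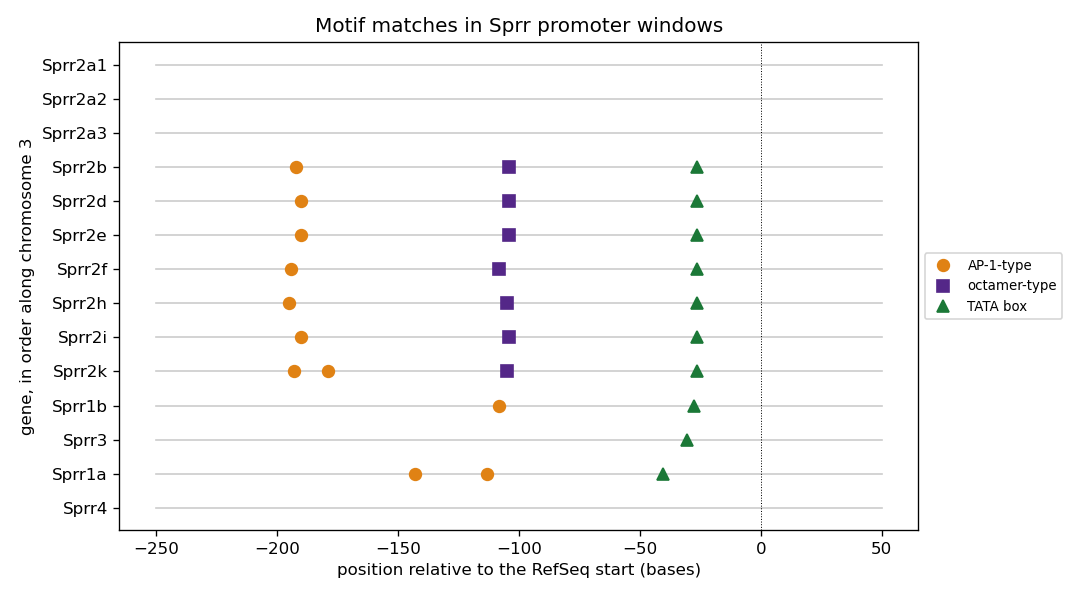
Positions of motif matches (horizontal axis, bases relative to the RefSeq start) in the 14 Sprr promoter windows, ordered by gene along chromosome 3 (vertical axis). Orange circles are AP-1-type, purple squares octamer-type and green triangles TATA matches. Sprr2b, Sprr2d, Sprr2e, Sprr2f, Sprr2h, Sprr2i and Sprr2k hold all 3, with the TATA box at position -29 in Sprr2b, Sprr2e and Sprr2f.

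Genes of other classes were read from lists. Of 24 genes for factors of the kinds named for Sprr2 promoters, 20 were tested, and 19 had a positive difference. Both knockout arrays were above both pools in 12 of the 20, against 22.4% of all genes, and the median difference was 0.31 against 0.025, while 0 passed limma. The largest differences were those of Fosb, an AP-1 subunit (1.09 ± 0.40, SE), Klf6, a Krüppel-like factor (0.68 ± 0.16), Irf1, an interferon regulatory factor (0.55 ± 0.18), and Elf3, an epithelial Ets factor (0.54 ± 0.17), each at a limma adjusted p of 0.802. Their part in the Sprr2 readings was not tested.

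Of 35 genes of the cornified envelope and late squamous differentiation, 6 were tested and 0 passed, with 4 positive differences and a median of 0.15. In 3 of the 6 both knockout arrays were above both pools, against 22.4% of all genes. Tgm5, a transglutaminase that cross-links envelope proteins, read 8.56 and 9.57 in knockout, against 7.44 and 6.65 in wild type (2.02 ± 0.43, SE, limma adjusted p = 0.802). Its groups did not overlap. Ppl, which encodes periplakin, was at 0.33, Sbsn, which encodes suprabasin, at 0.20, and Ivl, which encodes the envelope scaffold involucrin, at -0.27. Of 15 stratified epithelial keratins and basal markers, 10 were tested and 0 passed, with 4 positive differences and a median of -0.02. Krt5, the basal keratin, stood at -0.81 with overlapping groups, and Trp63, the basal transcription factor, at -0.26. Krt6a, a keratin of stressed epithelium, read 6.57 and 6.58 in knockout, against 6.15 and 6.09 in wild type, where it was not well above background. Krt15, a basal keratin, stood at 0.14. Krt6a and Krt15 passed the filter on dim probes through the knockout arrays alone, which favours a higher knockout reading. Krt1, Krt16, Dsg3 and Dsc3 were well above background in no Cy5 channel.

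The 6 urothelial markers read the other way from the 3 Sprr2 genes, with 0 positive differences, 4 genes below both pools on both knockout arrays (17.1% of all genes) and a median of -0.90, and 0 passed limma. Upk3a, a uroplakin, stood at -1.45, as did Krt20, a keratin of umbrella cells, and 2 further uroplakins, Upk1b and Upk2, at -0.94 and -0.86. The summed urothelial level was 11.60 and 11.47 in knockout, against 12.26 in pool 1 and 13.17 in pool 2. Of 20 epithelial stress genes 16 were tested, with 11 positive differences, a median of 0.18 and 0 passed. Both knockout arrays were above both pools in 6 of the 16 and below both in 2, against 22.4% and 17.1% of all genes. Cldn4, a tight junction claudin, stood at -0.63. The leukocyte list had 3 tested genes with a median of 0.08, and the stroma and endothelium list 5 with a median of 0.01. Summed leukocyte levels were 9.78 and 9.68 in knockout, against 9.82 and 9.60 in wild type, and those of stroma and endothelium 10.10 and 10.01 in knockout, against 10.30 and 9.76 in wild type. Ptprc, the pan-leukocyte marker, and the myeloid markers Cd14 and Lyz2 were well above background on every array in Cy5, with differences of 0.08, 0.22 and -0.19, and Cd3e and Itgam, markers of T cells and myeloid cells, in no Cy5 channel. The part of other cells in the Sprr2 readings was not tested.

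Over the 7 channels with signal, the genes with a profile nearest to that of Sprr2f were Pip4p2, a phosphoinositide phosphatase (root mean square difference of centred log2 levels 0.13), Lifr, the receptor for leukaemia inhibitory factor (0.23), and Usp29, a deubiquitinase gene (0.27). Sprr2b lay at 0.61 and Sprr2e at 0.72 from Sprr2f by the same measure, where a flat profile would lie at 1.02. The nearest probes of Pip4p2 and Lifr were not matched by the genes' other probes. Pip4p2 had 1 other probe at 0.14 in the Cy5 difference, and Lifr 3 others between -0.34 and 0.01. Each of the 3 Sprr2 genes had only 1 probe, so the same check could not be made for them.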

How the data were processed

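The 4 deposited Agilent two-colour files were made with Feature Extraction 10.7.3.1, per the file headers. The authors' files give each spot's intensity as a median over pixels, its local background and a processed signal. The log10 ratio of Cy5 over Cy3 in the deposited series table equalled the scanner files' in 45018 of 45018 spots on each array, with array medians of 0.173 (KO_vs_WT replicate 1) and 0 (the other arrays). Its scale, centring and direction are therefore those of the scanner software.

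Cy5 medians were background-corrected here with normexp (offset 50) and quantile normalized over the 4 arrays. Control spots, outlier-flagged spots and a dark patch of 248 spots on WT_self replicate 1 were left out. A probe was kept if both Cy5 channels of knockout, or both of wild type, were well above background, and each gene was read from its brightest probe (16062 genes). The Cy5 design was preferred because Cy3 of KO_vs_WT replicate 1 is nearly empty. Genes were named through accessions in RefSeq (GRCm38.p6), which 22944 of 41174 probes matched. The test was limma (version 3.58.1, under R version 4.3.3), two-sided, with Benjamini-Hochberg adjustment over all genes at 0.05. The fit was tested on simulated data. For Sprr4, whose probe was dim in Cy5 on both wild-type arrays, a lower bound of the fold was computed. It used, per array, the dimmest level counted as well above background or the probe's own level, whichever was higher. This gave 1.18, the same as the plain fold, so no bound is stated for Sprr4, and none was computed for Krt6a. Genes named were the 3 members, all Sprr genes, the up to 4 tested genes of a list with the largest difference, of which the text gives part for some lists, and the 3 profiles nearest to Sprr2f. Members and lists were chosen with earlier results of these data known. Some probes without a symbol of their own in the RefSeq table were not named, and some list members are not reported here.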

Additional observations from a re-analysis of the deposited data

How the results depend on the processing

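Sprr2f, Sprr2b and Sprr2e had a positive Cy5 difference under every alternative run. Each alternative reuses the Cy5 readings that chose the genes, which favours this sign, so it adds no support. Sprr2e, at 0.77, became 1.0 with a normexp offset of 10, 1.28 with the processed signal and 1.08 with median centring, and Sprr2b, at 1.09, became 1.52 with median centring, where the median of all genes was 0.33. The other alternatives moved the 3 genes by less than 1 SD between replicates. Without 1 array at a time, Sprr2f ranged from 1.68 to 2.69, Sprr2e from 0.67 to 0.87 and Sprr2b from 0.77 to 1.42. Within KO_vs_WT replicate 2, the ratios became 3.55 for Sprr2f, 1.94 for Sprr2b and 1.3 for Sprr2e with median centring, where the median of all genes was 0.35, and 4.55, 2.19 and 1.99 with the scanner software's ratio. Same-numbered arrays did not deviate together (r = 0.0382 across genes). With the replicate block the differences stayed at 2.18, 1.09 and 0.77, and 0 genes were called (586 at an unadjusted p under 0.05). Leaving out 1 array gave 0 to 2510 genes called higher and 0 to 1688 lower. The highest counts came without WT_self replicate 1, in a fit whose spread rests on the knockout arrays alone and assumes that the lone wild-type array varies like them. Without WT_self replicate 2 the smallest adjusted p was 0.0534, with 2241 genes at an unadjusted p under 0.05. The other alternatives called 0 genes. Signal over background limits the ratios, since on KO_vs_WT replicate 2 the wild-type Cy3 signal was 19.7 for Sprr2f and 18.6 for Sprr2e. The cause of these shifts was not tested.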
